A study of Arabidopsis thaliana with 9 samples.

Results

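Expansins are plant cell wall proteins that loosen the wall of growing cells without cutting its polymers, and they work best in the acidic wall that growing cells maintain. Alpha-expansins (EXPA) and beta-expansins (EXPB) are the families with known wall-loosening action, while expansin-like A and B proteins (EXLA, EXLB) share their fold but have no such action established. In leaves, expansins are known for their part in cell expansion as the blade grows. Described here are 8 Arabidopsis thaliana expansin genes, EXPA4, EXPA8, EXPA9, EXPA15, EXPA16, EXPB1, EXPB3 and EXLA2, each read by the 1 probe set of the Affymetrix ATH1 array that the platform annotation pairs with it alone. They are 8 of 18 expansin genes with a probe set of their own among the 13356 genes that this annotation pairs so, and 8 of 34 genes with an expansin symbol in the RefSeq gene table of assembly TAIR10.1. The annotation used here names no gene for 8794 of the 22810 probe sets, so further expansins may be read by probe sets that are unnamed here.

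The series holds 9 arrays of leaf RNA from plants at growth stage 1.14, with 3 arrays in each of 3 groups. The wild-type group was strain Col-0. Both other groups had the Col-0 background and a T-DNA knock out mutation of DEK1 (At1g55350), which encodes the plant calpain, a membrane protein with a cysteine protease domain that is needed for epidermis formation. On that knock out, the calpain overexpressing group carried a transgene named ADEK1 calpain and the calpain null group a transgene named ADEK1 calpain null; the labels used here do not say what null stands for, which promoter drives the transgene, or how many independent lines each group holds. Seeds of all 3 groups had 3 days in the cold, seedlings went to soil after 7 days, and plants grew at 21 °C in short days with 6 to a pot. Replicates were numbered, but nothing says that they came from separate plants, and the p-values therefore cover only differences among these samples, part of which may be technical.

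All values are MAS5 signals, a linear brightness that the authors scaled to a common mean on every array (median signal 33.1 to 35.7 per array) and precision is limited by having 3 arrays a group. A probe set was tested if it reached a signal of 17.6 on at least 3 arrays, which 14151 did. Fold changes are on the scale of log2(signal + 3.63), and limma's two-sided adjusted p (Benjamini-Hochberg over all tested probe sets) is called under 0.05. The annotation pairs 0 probe sets with AT1G55350, so the transcript of the targeted gene was not analysed here. Rubisco activase (RCA), a marker of green leaf tissue, had signals of 5277 ± 474 in wild-type, 5618 ± 598 in calpain null and 4926 ± 363 in calpain overexpressing leaves (SD, n = 3). The light-harvesting gene LHCB4.3, the other tested mesophyll marker, had 69.6 ± 23.7, 65.0 ± 8.90 and 128 ± 28.8, a log2 fold change of calpain overexpressing over wild type of 0.88 (limma adjusted p = 0.0753). None of the 7 tested markers of mesophyll, epidermis and stomata was called by limma in any comparison. In calpain overexpressing over wild-type leaves 2 of them had an unadjusted p under 0.05, against 18.1% of all tested probe sets. Between the transgenic lines 3 of 4 stomatal and 1 of 2 mesophyll markers did, against 10.6% of all. In calpain null over wild-type leaves 1 of 4 stomatal markers did, against 17.4% of all. Against wild type the calpain overexpressing group had log2 fold changes of -0.30 for ACR4 of the epidermis, -0.43 for FAMA, -0.32 for MUTE, -0.09 for SPCH and 0.01 for STOMAGEN of the stomatal lineage. The root marker PYK10 had 25.9 ± 15.2, 34.3 ± 25.9 and 47.7 ± 56.2. The part of these markers in the results was not tested. The control signal for 25S rRNA was 160 on the calpain overexpressing array numbered 1, 167 on the calpain null array numbered 1 and 208 to 384 on the other 7 arrays. In leaf RNA, more transcript per cell and a larger share of cells that make it cannot be told apart.

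Calpain overexpressing leaves were compared with wild-type leaves to find which expansins differ where the calpain transgene is overexpressed. EXPA4 and EXPB3 rose, by 1.70 and 1.95 times in mean signal, and neither EXPA9 nor EXPA15 passed the test, with ratios of 0.993 and 0.928. Of the 5 alpha-expansins 1 rose and 4 did not pass, of the 2 beta-expansins 1 rose and 1 did not pass, and EXLA2 did not pass. None of the 8 fell. Over all tested probe sets 0.806% were called higher and 0.806% lower in this comparison. The median log2 fold change of the 8 genes was 0.34, against 0.01 over all tested probe sets. Leaving out the wild-type array numbered 1 gave 0.16 and the one numbered 2 gave 0.52. Leaving out the array numbered 1 of the calpain overexpressing group gave 0.54, and its array numbered 3 gave 0.19.

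The alpha-expansin EXPA4 (AT2G39700, probe set 267590_at) had wild-type signals of 190, 188 and 201 on the arrays numbered 1, 2 and 3. Its calpain null signals were 177, 247 and 214. Its calpain overexpressing signals were 323, 337 and 325. All 3 calpain overexpressing arrays lay above the other 6, while wild-type and calpain null arrays overlapped. Means were 193 ± 6.92 in wild-type, 213 ± 34.9 in calpain null and 329 ± 7.66 in calpain overexpressing leaves (SD, n = 3). The rise over wild type was 0.76 on the log2 scale (SE 0.12, adjusted p = 0.0162), and EXPA4 ranked 52 of 14151 by p.

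The beta-expansin EXPB3 (AT4G28250, probe set 253815_at) had wild-type signals of 210, 276 and 287. Its calpain null signals were 336, 175 and 285, on both sides of the wild-type range. Its calpain overexpressing signals were 482, 500 and 526, again all above the other 6 arrays. The mean was 258 ± 41.9 in wild-type leaves, 265 ± 82.4 with calpain null and 503 ± 21.8 with calpain overexpressing. The rise over wild type was 0.97 on the log2 scale (SE 0.20, adjusted p = 0.0431), rank 175 of 14151. EXPA4 and EXPB3 were the 2 of 8 genes whose calpain overexpressing arrays were all above wild type; 12.1% of all tested probe sets showed this, and 2.49% had calpain overexpressing arrays above all 6 others.

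**Figure D1:**
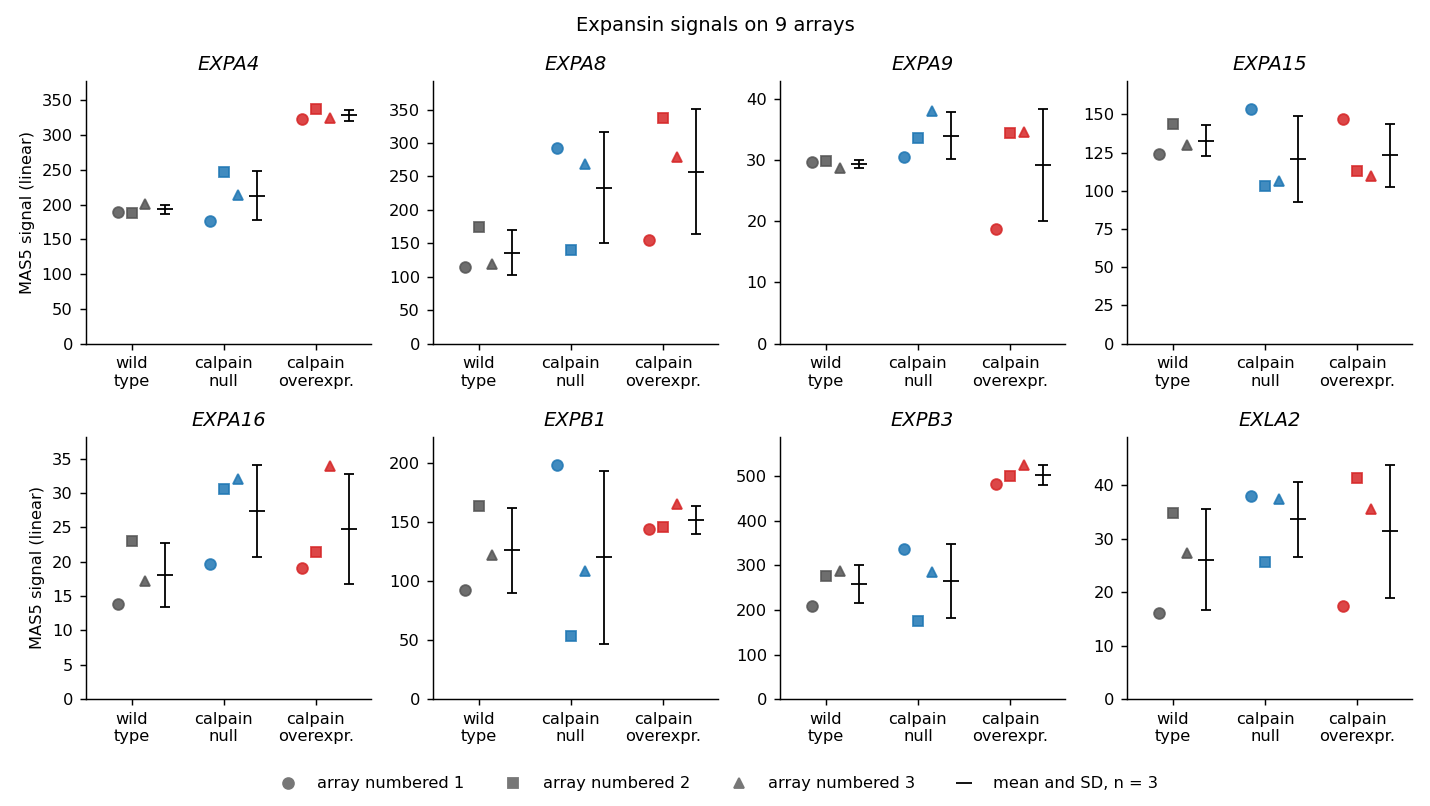
MAS5 signal (linear axis from 0) of each of the 8 expansin genes on the 9 arrays, by group, with array number as symbol and the mean ± SD of each group in black (n = 3). The calpain overexpressing arrays stand above all others for EXPA4 (323 to 337) and EXPB3 (482 to 526), and the groups overlap for the other genes apart from EXPA9 in calpain null against wild type.

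Both calls were lost when some single arrays were left out. Over all tested probe sets 228 were called, and 58, 55 and 30 without the wild-type array numbered 1, 2 and 3. EXPA4 missed the threshold when any 1 wild-type array, or the calpain overexpressing array numbered 2 or 3, was left out, with adjusted p from 0.0626 to 0.095 and a log2 fold change from 0.74 to 0.79. EXPB3 missed it without any 1 wild-type array, the calpain null array numbered 3 or the calpain overexpressing array numbered 2 or 3, with adjusted p from 0.0615 to 0.165 and log2 fold changes from 0.83 to 1.05, and also with no filter (adjusted p = 0.0869) or no intensity trend (adjusted p = 0.0845).

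The alpha-expansin EXPA8 (AT2G40610, probe set 255822_at) had wild-type signals of 115, 175 and 119. Its calpain null signals were 293, 139 and 268, and its calpain overexpressing signals were 155, 338 and 279. In each transgenic group 1 array lay within the wild-type range and the others above it. The mean went from 136 ± 33.8 in wild type to 257 ± 93.5 in the calpain overexpressing group, a log2 fold change of 0.86 with a 95% confidence interval of 0.18 to 1.54 (limma adjusted p = 0.182, unadjusted p = 0.0181). Unadjusted p was under 0.05 for 3 of the 8 genes, EXPA4, EXPB3 and EXPA8, and for 18.1% of all tested probe sets. Without the calpain overexpressing array numbered 1, EXPA8 passed the test with a log2 fold change of 1.18 (adjusted p = 0.021). It also passed with array weights (1.09, adjusted p = 0.0119) and when the array numbered 1 of every group was left out (1.07, adjusted p = 0.0348). Array weights called 2663 of the 14151 tested probe sets, against 228 in the fit described. Fits with 1 array left out called 26 to 1789 of them.

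The beta-expansin EXPB1 (AT2G20750, probe set 265443_at) had wild-type signals of 92.0, 163 and 122. Its calpain overexpressing signals of 144, 145 and 165 were close together and reached just past the wild-type range. Its calpain null signals of 198, 53.5 and 108 held both the highest and the lowest value of the 9 arrays. The log2 fold change of calpain overexpressing over wild-type leaves was 0.29 (95% confidence interval -0.48 to 1.06, adjusted p = 0.689).

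EXPA15 (AT2G03090, probe set 266770_at), an alpha-expansin, had the narrowest intervals of the 6 genes not called. Its signals were 124, 144 and 130 in wild-type, 153, 103 and 106 in calpain null, and 147, 113 and 110 in calpain overexpressing leaves. In both transgenic groups the array numbered 1 was above the wild-type range and the other 2 arrays below it. The log2 fold change of calpain overexpressing over wild-type leaves was -0.11 (95% confidence interval -0.48 to 0.25, adjusted p = 0.751).

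The remaining 3 genes had low signals, where the pseudocount shrinks fold changes. EXPA9 (AT5G02260, probe set 250992_at), an alpha-expansin, had 29.7, 29.9 and 28.7 in wild type, against 18.7, 34.4 and 34.6 with calpain overexpressing. The array numbered 1 was below and the others above the wild-type values, giving a log2 fold change of -0.05 (95% confidence interval -0.52 to 0.42). The direction turned to 0.21 without the calpain overexpressing array numbered 1. EXPA16 (AT3G55500, probe set 251791_at), an alpha-expansin, had 13.9, 23.1 and 17.1 in wild type, against 19, 21.4 and 33.9 with calpain overexpressing, and the groups overlapped. It reached the filter signal on 1 wild-type array and on all 6 transgenic arrays, so it was tested because of its signals in the transgenic groups; its log2 fold change was 0.38 (95% confidence interval -0.20 to 0.95). EXLA2 (AT4G38400, probe set 252997_at), an expansin-like A gene known for its role in susceptibility to a necrotrophic fungus, had 16.1, 34.9 and 27.3 in wild type, against 17.5, 41.3 and 35.5 with calpain overexpressing. It overlapped between groups, reached the filter signal on 2 arrays of each of these groups and had a log2 fold change of 0.22 (95% confidence interval -0.46 to 0.90).

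**Figure D2:**
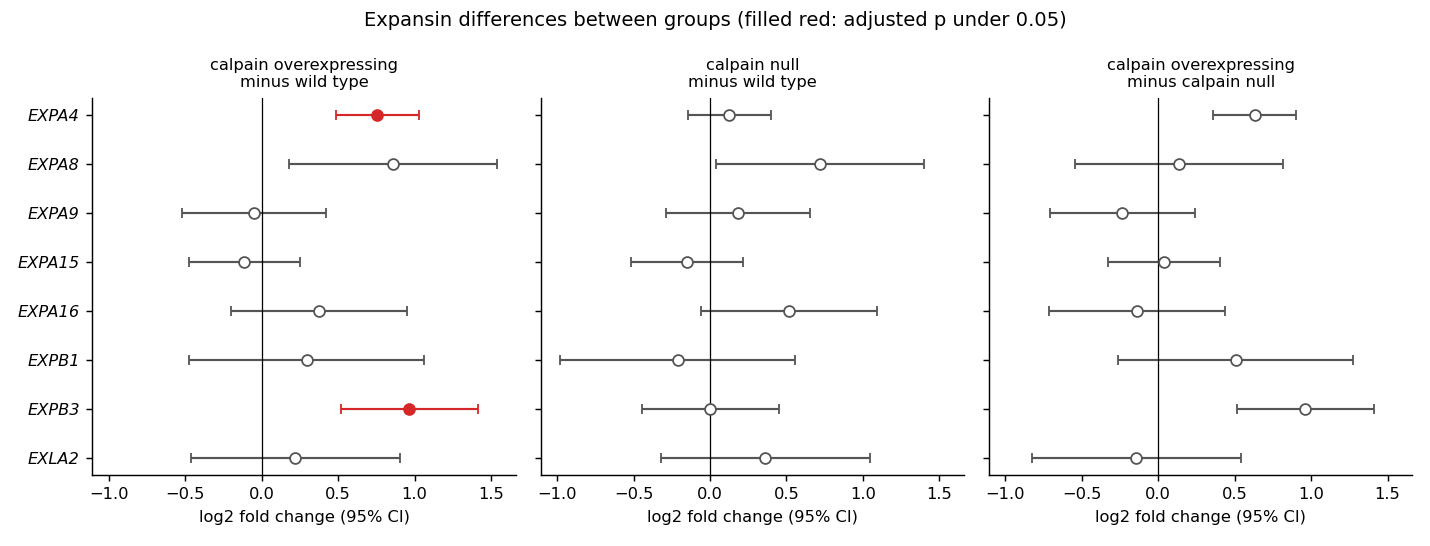
Log2 fold change of each expansin gene in the 3 comparisons, with limma's 95% confidence interval from the fit of all 9 arrays. Filled red points are the called differences, EXPA4 (0.76) and EXPB3 (0.97) in calpain overexpressing minus wild type, and no point is called in the other 2 panels.

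Calpain null leaves were compared with wild-type leaves to find which expansins differ in the line labelled calpain null. None of the 8 genes was called by limma, and EXPA8 alone had an unadjusted p under 0.05; over all tested probe sets 0.0565% were called and 17.4% had an unadjusted p under 0.05. EXPA8 went from 136 ± 33.8 to 233 ± 82.4, a ratio of 1.72 and a log2 fold change of 0.72 (95% confidence interval 0.04 to 1.40, adjusted p = 0.262). EXPA4 had a log2 fold change of 0.13 (95% confidence interval -0.15 to 0.40) and EXPB3 of 0.00 (95% confidence interval -0.44 to 0.45).

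EXPA9 had calpain null signals of 30.5, 33.6 and 38.0, all above its wild-type signals, with a log2 fold change of 0.18 (adjusted p = 0.691). It was the 1 of 8 genes whose calpain null arrays lay wholly above wild type, as 13% of all tested probe sets did. EXPA16 had calpain null signals of 19.7, 30.5 and 32 and a log2 fold change of 0.52 (95% confidence interval -0.06 to 1.09). EXLA2 had 38.0, 25.6 and 37.5 and 0.36 (95% confidence interval -0.32 to 1.05). EXPA15 and EXPB1 had negative values, -0.15 (95% confidence interval -0.52 to 0.22) and -0.21 (95% confidence interval -0.98 to 0.56), and the second turned to 0.25 without the calpain null array numbered 2. The median log2 fold change was 0.15 over the 8 genes and 0.01 over all tested probe sets, and it ran from 0.10 to 0.26 with 1 array left out, highest without the calpain null array numbered 2 and lowest without the wild-type array numbered 1. This comparison shares its wild-type arrays with the previous one.

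Set directly against each other, the transgenic lines show which expansins differ between leaves labelled calpain overexpressing and calpain null. None of the 8 was called by limma, against 0.523% of all tested probe sets, and EXPA4 and EXPB3 had unadjusted p values under 0.05, as did 10.6% of all tested probe sets. EXPA4 was 1.54 times as high in calpain overexpressing leaves, a log2 fold change of 0.63 (95% confidence interval 0.36 to 0.90, adjusted p = 0.052, rank 78 of 14151). EXPB3 was 1.89 times as high, with a log2 fold change of 0.96 (95% confidence interval 0.52 to 1.41, adjusted p = 0.0685, rank 112). For both genes the lowest calpain overexpressing array lay above the highest calpain null array, as for 6.26% of all tested probe sets. EXPA4 passed the threshold in 5 and EXPB3 in 4 of 21 alternatives, among them the fit without the arrays numbered 1 of all 3 groups (adjusted p = 0.0448 and 0.0164). Leaving out 1 array also brought each gene under the threshold: EXPA4 had adjusted p = 0.0447 without the calpain null array numbered 2 and EXPB3 had adjusted p = 0.0307 without the calpain null array numbered 1.

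The other 6 genes had log2 fold changes between the transgenic lines of 0.14 for EXPA8 (95% confidence interval -0.54 to 0.82), -0.23 for EXPA9 (-0.71 to 0.24) and 0.04 for EXPA15 (-0.33 to 0.40). The corresponding values were -0.14 for EXPA16 (95% confidence interval -0.72 to 0.44), 0.51 for EXPB1 (-0.26 to 1.28) and -0.14 for EXLA2 (-0.83 to 0.54). The value of EXPB1 became 0.95 when array 1 of the calpain null group was left out and 0.04 when array 2 was. Among all 3 groups, EXPA4 was called by limma's F-test (adjusted p = 0.0257) and EXPB3 was not (adjusted p = 0.0512), while 1.16% of all tested probe sets were called. The wild-type and calpain null means of EXPB3 were closer than the SD of either group. Those of EXPA4, 193 and 213, were closer than the calpain null SD of 34.9 but not than the wild-type SD of 6.92. By mean signal, EXPA4 and EXPB3 ran from wild type through calpain null to calpain overexpressing. EXPA8 ran in the same order. EXPA9, EXPA16 and EXLA2 were highest in calpain null, EXPB1 was lowest in calpain null, and EXPA15 was highest in wild type. In none of these genes, EXPA4 and EXPB3 included, did neighbouring groups differ by the test. For EXPA4 and EXPB3 the called difference was between wild type and calpain overexpressing.

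The genes differed in how closely the arrays of a group agreed in signal. In calpain overexpressing leaves the coefficient of variation of the signal was 2.33% for EXPA4 and 4.33% for EXPB3, against a median of 13.2% over all tested probe sets. EXPB1 had 7.78% and EXPA15 16.8%, and EXPA8, EXPA9, EXPA16 and EXLA2 had 31.2% to 39.5%. In calpain null leaves EXPA4 had 16.4% and EXPB3 31.1%, and EXPB1 was the most variable at 60.9%, where the median was 13.1%. In wild-type leaves the order was another one: EXPA9 had 2.20%, EXPA4 3.58% and EXPA15 7.63%, EXPB3 had 16.3%, and EXPA8, EXPA16, EXPB1 and EXLA2 had 24.9% to 36.2%, against a median of 11.1%.

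The array numbered 1 of the calpain overexpressing group had the lowest signal of its group for 7 of the 8 genes and the highest for EXPA15. For EXPA8, EXPA9 and EXLA2 that array had log2 differences from the wild-type mean of 0.21, -0.57 and -0.44, while the arrays numbered 2 and 3 had 1.32 and 1.04, 0.20 and 0.21, and 0.65 and 0.45. For EXPA4 the 3 arrays had 0.73, 0.79 and 0.74, and for EXPB3 0.91, 0.96 and 1.03. In the calpain null group the array numbered 2 was lowest for EXPA8, EXPA15, EXPB1, EXPB3 and EXLA2, and the array numbered 1 was highest for the same 5 genes. EXPA4 went the other way, with the array numbered 1 lowest and the array numbered 2 highest. In wild type, the array numbered 1 was lowest for 6 genes and the array numbered 2 highest for 6.

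**Figure D3:**
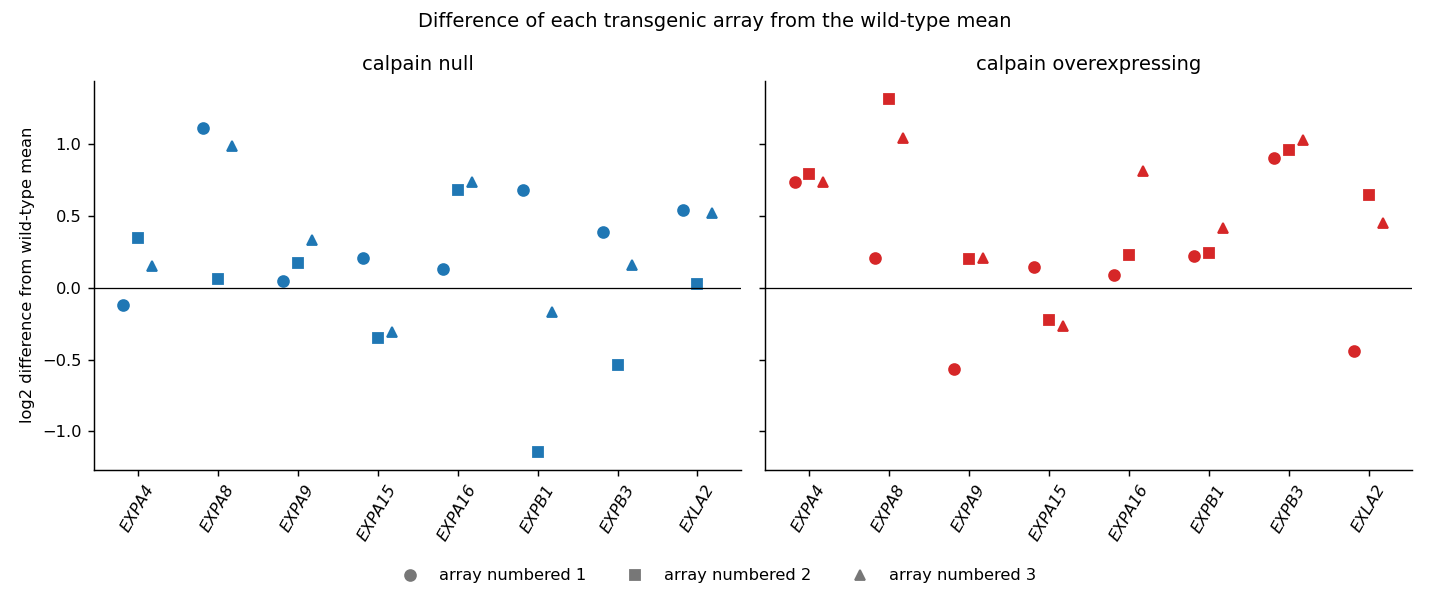
Log2 difference of each transgenic array from the wild-type mean for the 8 expansin genes, with array number as symbol. In calpain overexpressing leaves the 3 arrays lie together for EXPA4 (0.73 to 0.79) and EXPB3 (0.91 to 1.03) and apart for EXPA8 (0.21 to 1.32), and in calpain null leaves EXPB1 runs from -1.14 to 0.68.

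The other 10 expansin genes with a probe set of their own lay mostly under the filter signal, and 77 of their 90 array values were below it. EXLB1, an expansin-like B gene, alone passed the filter. It had 55.4 ± 25.7 in wild-type, 73.6 ± 9.06 in calpain null and 59.9 ± 11.5 in calpain overexpressing leaves (adjusted p = 0.745 for calpain overexpressing minus wild type, 0.402 for calpain null minus wild type and 0.809 for the transgenic lines). EXPA7 and EXPA18, alpha-expansins known from root hair cells, had group means of 3.59 to 8.04 and 9.12 to 12.9. EXLA1, EXLA3, EXPA20, EXPA21, EXPA24, EXPB2 and EXPB5 had group means from 0.673 to 15.9 and were not tested. A further 2 probe sets are each paired with several genes, an expansin among them, and were not named.

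**Figure D4:**
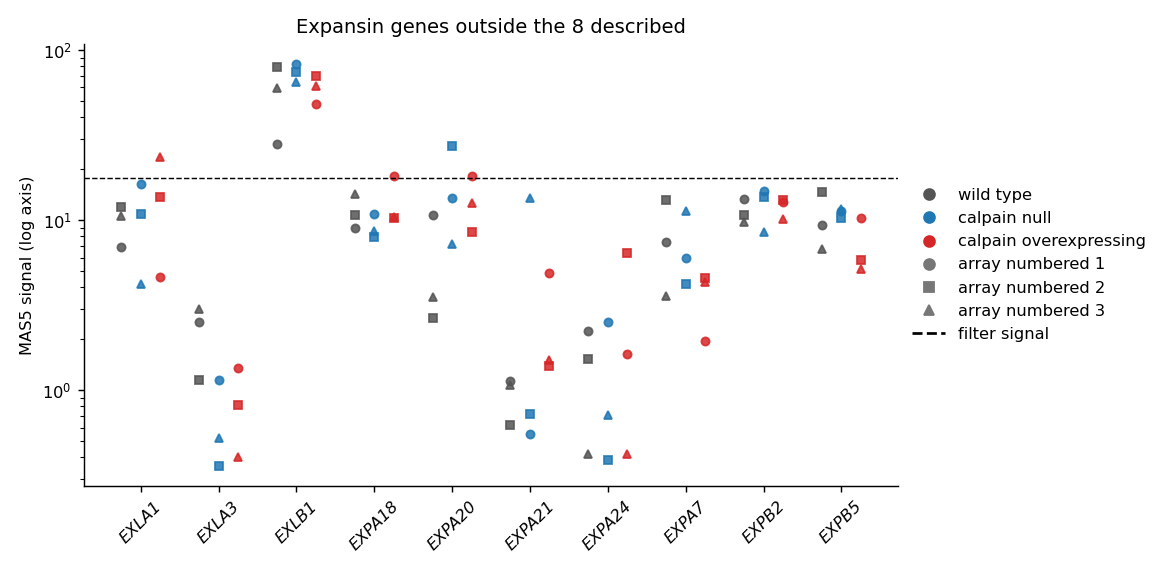
MAS5 signal (log axis) of the 10 expansin genes outside the 8 described, by group (colour) and array number (symbol), with the filter signal of 17.6 as a dashed line. EXLB1 lies above the line on all 9 arrays, and the other genes reach it on at most 2.

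Profiles over the 9 arrays were compared between each expansin and 7710 tested single-gene probe sets, as the root mean square difference of log2 values centred on each gene's own mean. The genes nearest to EXPA4 were AT5G15740 (0.11), RR16 (0.12) and AT4G30450 (0.12). The response regulator RR16 (ARR16) belongs to the cytokinin pathway, and its signal was 115 ± 4.77 in wild-type, 129 ± 35.2 in calpain null and 193 ± 28.0 in calpain overexpressing leaves. The genes nearest to EXPB3 were AT3G30460 (0.19), AT5G24580 (0.20) and AT5G61290 (0.21), and their signals, like that of EXPB3, were lowest on the calpain null array numbered 2. They were chosen for this likeness, and AT3G30460 and AT5G61290 lay under the filter signal on all 6 wild-type and calpain null arrays (6.92 to 15.9 and 10.5 to 14.1), so that they were tested only because of their calpain overexpressing signals of 22.7 to 26.8 and 23.7 to 27.4. The nearest gene was ALN, which encodes allantoinase of purine breakdown, for EXPA8 (0.19) and LEP, an ERF-type factor, for EXPB1 (0.18). It was AT3G47295 for EXPA9 (0.09), AT1G15290 for EXPA15 (0.06), AT4G26400 for EXPA16 (0.11) and AT1G30540 for EXLA2 (0.09). The size of these differences depends on how much each profile varies, from 0.20 for EXPA15 to 0.56 for EXPA8 as the root mean square of the profile itself.

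**Figure D5:**
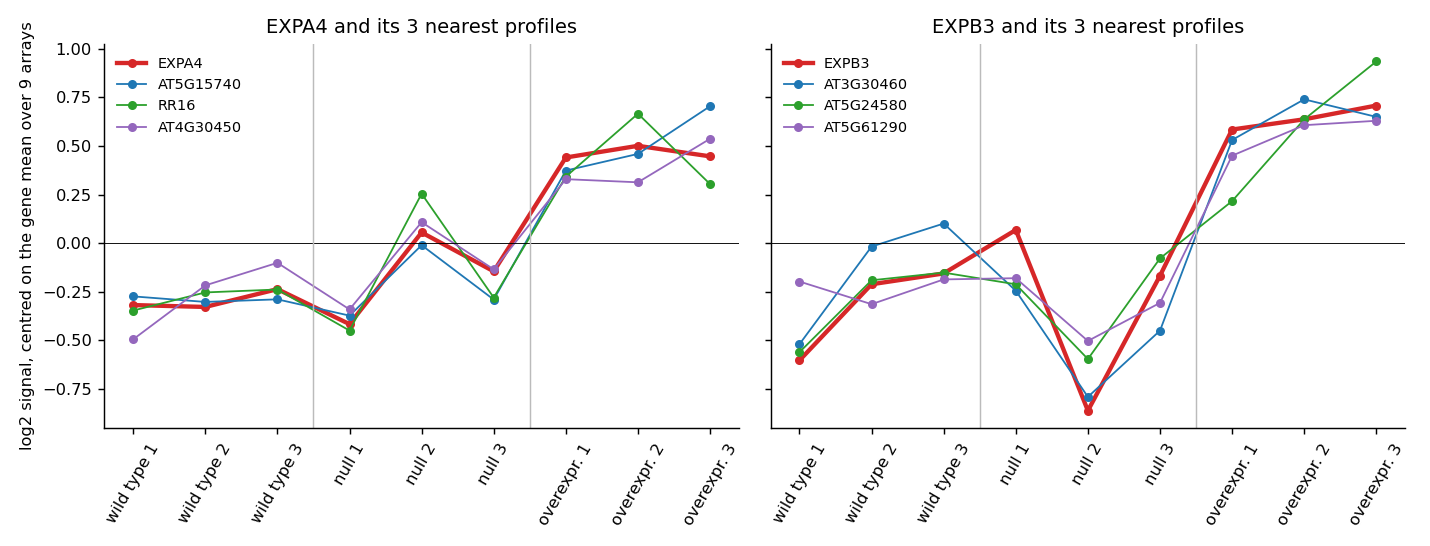
Log2 signal, centred on each gene's mean over the 9 arrays, of EXPA4 (left) and EXPB3 (right) in thick red with the 3 genes of nearest profile. All 4 genes of the EXPA4 set lie above 0.30 on the 3 calpain overexpressing arrays and below 0 in wild type, and the EXPB3 set has its lowest point on the calpain null array numbered 2, where AT3G30460 and AT5G61290 are under the filter signal.

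Among other genes of wall extension, 11 of a list for xyloglucan and cellulose had a probe set of their own and 5 were tested. XTH19 and XTH32, which cut and rejoin xyloglucan, rose in calpain overexpressing over wild-type leaves. XTH32 went from 440 ± 37.0 to 637 ± 48.5, a change of 0.53 on the log2 scale with limma's adjusted p = 0.0361. XTH19 had signals of 0.513, 5.28 and 1.32 in wild type and 0.939, 2.68 and 4.25 in calpain null, all far under the filter signal, against 36.2, 157 and 443 with calpain overexpressing, and was tested only because of the latter. Its call against wild type (limma adjusted p = 0.00859) is of the fitted difference, which rests on those signals under the filter. Set against the filter signal as a floor, its mean log2 value over the 3 calpain overexpressing arrays was 6.70-fold higher, a distance that was not tested. The array numbered 1, at 36.2, was nearer to the floor of 17.6 than this. The fitted difference of XTH19 from wild type followed the pseudocount, from 3.14 at 16 to 5.62 at 1 on the log2 scale. XTH16 (-0.57), EXGT-A3 (-0.37) and COB (0.13), which encodes a protein needed for cellulose orientation, were not called. On the calpain overexpressing arrays numbered 1, 2 and 3, XTH32 had log2 differences from the wild-type mean of 0.40, 0.60 and 0.59. Unadjusted p was under 0.05 for 4 of the 5 in calpain overexpressing over wild-type leaves, against 18.1% of all tested probe sets. Of these, XTH19 and XTH32 were higher and XTH16 and EXGT-A3 lower. XTH19 was among the 5 only through its calpain overexpressing signals, so the count cannot be read against the share of all. In calpain null over wild-type leaves none of the 5 was called by limma, and 1 had an unadjusted p under 0.05, against 17.4% of all. Between the transgenic lines XTH19 alone was called by limma (adjusted p = 0.0156), again for the fitted difference and not for the distance from the floor. XTH32 had 0.51 there (adjusted p = 0.0685). Unadjusted p was under 0.05 for 3 of the 5 there, against 10.6% of all tested probe sets, with the same limit from XTH19. XTH19 and XTH32 were higher and EXGT-A3 lower (-0.40). Of 5 tested growth regulators, ARL was called in calpain overexpressing over wild-type leaves (3.18, adjusted p = 0.0466), and the other 4, among them IAA29, WES1 and GH3.3, were not called in any comparison. Unadjusted p was under 0.05 for 4 of the 5 in calpain null over wild-type leaves, against 17.4% of all tested probe sets. Their log2 fold changes there ran from -0.02 for GH3.3 to 2.87 for IAA29 (limma adjusted p = 0.0995), with a median of 1.38. The wild-type mean of IAA29, 7.34, was under the filter signal. For calpain overexpressing over wild type the count was 2 of 5 (18.1% of all). In calpain null over wild-type leaves ARL had 1.89 (limma adjusted p = 0.199), with log2 differences of -0.16, 3.04 and 2.80 on the 3 arrays. It was called in 4 of 21 alternatives, one of them without the calpain null array numbered 1 (2.92, adjusted p = 0.0111). That fit called 232 of all tested probe sets, against 8 in the fit described. Between the transgenic lines ARL had 1.29 (adjusted p = 0.57). The other 4 growth regulators were lower in calpain overexpressing than in calpain null leaves, from -0.67 for HAT2 to -0.88 for WES1. Unadjusted p was under 0.05 for 2 of the 5 in that comparison, against 10.6% of all tested probe sets. Of 21 alternatives, XTH19, XTH32 and ARL kept their call against wild type in 19, 12 and 12, and their highest adjusted p was 0.0629, 0.174 and 0.195. Each of these 3 calls was lost without the wild-type array numbered 3 and without the calpain overexpressing array numbered 2. XTH32 and ARL also lost theirs without any other wild-type array, the calpain overexpressing array numbered 3 or the calpain null array numbered 3, and XTH32 without the calpain null array numbered 2. Both lost theirs with no filter (adjusted p = 0.0659 and 0.104) and no intensity trend (0.083 and 0.0912), and ARL with quantile normalization (0.0508). Between the transgenic lines the XTH19 call was lost without the calpain null arrays numbered 2 or 3, without the calpain overexpressing array numbered 2, and in a fit of these 2 groups alone (adjusted p = 0.0572). The annotation used here named 0 probe sets for the lists of proton pumps of acid growth and of water channels, which were therefore not analysed here.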

How the data were processed

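The deposited table holds 1 intensity value for each of 22810 probe sets on 9 ATH1 arrays of leaf RNA, made by the authors with MAS5 in GCOS, per the submitters' processing notes, on a linear scale. A Qiagen kit was used for extraction and the one-cycle method for biotin labelling, per the labels' protocols. Each array's mean after trimming 2% at each end was 100.01, so every difference is relative to the rest of its array. Gene names came from the platform annotation, updated through RefSeq TAIR10.1.

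Signals were transformed as log2(signal + 3.63), the 20th percentile of the table. The filter signal of 17.6 is the 40th percentile, and 64 control probe sets were left out. Group means of all 9 arrays were modelled by limma 3.58.1 under R 4.3.3 (6 residual degrees of freedom, empirical Bayes with an intensity trend). The fit was also run on simulated data with independent noise. That run cannot show how the fit handles effects shared by a whole array. Figures used matplotlib 3.10.9.

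All 8 genes were named, with any other expansin with a probe set of its own, the genes of nearest profile (3 for EXPA4 and EXPB3, 1 for the others), and called genes and up to 3 others of each list. The members, lists and alternatives were chosen with earlier results of these data known. Alternatives covered the pseudocount, filter, normalization, trend, array weights, a block for the replicate number, fits of 2 groups, arrays left out and probe sets that may cross-hybridise left out.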

Additional observations from a re-analysis of the deposited data

How the results depend on the processing

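The number of the 8 expansins called in calpain overexpressing minus wild type was 2. It became 1 with no filter on low signals or no intensity trend, and 3 with array weights or with the arrays numbered 1 left out. It ran from 0 to 3 when 1 array was left out. In calpain null minus wild type it was 0 under all 21 alternatives. Between the transgenic lines it was 0, became 1 with a pseudocount of 16 and 2 with array weights or with the arrays numbered 1 left out, and ran from 0 to 1 with 1 array left out. With the replicate number as a block it became 2 between the transgenic lines (EXPA4 adjusted p = 0.0291, EXPB3 adjusted p = 0.041). The number stayed 2 for calpain overexpressing and 0 for calpain null against wild type. Calls over all tested probe sets went with the block from 228 to 770 and from 8 to 461 in these 2 comparisons, and from 74 to 187 between the transgenic lines. Deviations of arrays from their group means correlated between groups from -0.13 to 0.37 for same-numbered and from -0.30 to 0.27 for differently numbered arrays. Whether same-numbered samples share a source was not tested. The F-test called 1, then 2 with a pseudocount of 16, the replicate block, cross-hybridising probe sets left out or the arrays numbered 1 left out, 3 with array weights, 0 with no intensity trend, and 0 to 3 with 1 array left out.

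Log2 fold changes that changed sign were all of differences not called. EXPB3 in calpain null minus wild type became -0.04 with median centring, -0.13 under array weights and -0.33 without the arrays numbered 1, and ran from -0.19 to 0.27 with 1 array left out. EXPA9 in calpain overexpressing minus wild type became 0.13 with array weights and 0.21 once the arrays numbered 1 were left out, and EXLA2 between the transgenic lines became 0.15 and 0.28. With 1 array left out, EXPA9 ran from -0.18 to 0.21 and EXLA2 from -0.0488 to 0.5498 in calpain overexpressing minus wild type, and EXPB1 from -0.66 to 0.25 in calpain null minus wild type. Between the transgenic lines the ranges were -0.19 to 0.46 for EXPA8, -0.364 to 0.0232 for EXPA9, -0.0929 to 0.2157 for EXPA15, -0.3592 to 0.0047 for EXPA16 and -0.36 to 0.19 for EXLA2. The cause was not tested. A filter at the table's median signal left out EXPA9 and EXPA16. Of all tested probe sets, those called in calpain overexpressing minus wild type numbered 26 to 2663 over the alternatives (228 in the fit described), 1 to 1122 in calpain null minus wild type (8) and 24 to 373 between the transgenic lines (74). EXPA9, EXPA16 and EXLA2 had low signals, and whether signal close to background limits their values was not tested. In calpain null minus wild type, where it was not called, XTH32 (0.02) became -0.0202 with median centring, -0.0312 under array weights and -0.1029 once the arrays numbered 1 were left out. Leaving out 1 array moved it from -0.0470 to 0.0694, and XTH19 (0.11) from -0.1220 to 0.4307. The cause was not tested.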
